A study of Mus musculus with 35 samples.

Results

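Lgr5-positive cells of the mouse small intestine were compared after growth in organoids and directly after isolation. Lgr5 is a surface receptor for R-spondins that marks the stem cells at the base of the intestinal crypt. The wells compared were all wells of the table of Lgr5-positive organoid cells and all wells of the table of Lgr5-EGFP cells that held at least 1500 counts of genes. A well held 1 sorted cell. They numbered 233 of the 1209 wells of the whole series that passed this minimum. The 233 wells were 74 organoid wells in 1 library, 75 wells of intestine plate 1 and 84 wells of intestine plate 2. Before the minimum these 3 libraries held 288 wells. The shallowest well kept had 1599 counts and the deepest well left out had 1409 counts.

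Transcripts were counted by CEL-seq, which tags the 3′ end of each polyadenylated transcript with a barcode for its well and a random barcode for its molecule. The culture group came from Lgr5-GFP-DTR mice on a C57BL/6 background, in which a green fluorescent protein and a diphtheria toxin receptor are expressed from the Lgr5 gene. Crypts of this genotype were grown in Matrigel with EGF, RspoI, Noggin, B27 and N-acetylcysteine, split weekly, and dissociated with TrypLE. The labels list this library as 1 replicate run on 4 lanes. The table's name was all that tied it to this label, and its label does not say that the cells were cultured beyond a protocol text shared by all entries, so each organoid value rests on that match. The group from intestine came from Lgr5-EGFP mice, also C57BL/6, whose cells were freed from fresh crypts with EDTA and trypsin and sorted without culture. It has 2 plates, and the labels do not say whether they hold different animals. Culture can therefore not be told apart from the mouse, the reporter allele, the dissociation or the library, and p-values measure the spread between passages and plates only. Cells not selected for Lgr5 served as a second comparison: whole organoids of wild-type C57BL/6 origin (2 replicates), and YFP-positive progeny of Lgr5-positive cells sorted from the intestine of Lgr5-YFP mice at 5 days (5 plates). Since counts were summed over wells, fewer cells with a transcript and less of it per cell cannot be told apart in the library levels.

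Crypt base stem cells divide daily and are kept by Wnt and R-spondin signals from Paneth cells and stroma, by Notch signals from their neighbours, by EGF and by low BMP activity. Organoid medium supplies the R-spondin, EGF and BMP inhibitor of that niche. It supplies no immune cells, no microbes and no blood flow. In intestine, interferon-gamma from lymphocytes induces MHC class II on epithelial cells, and microbial signals induce the Reg3 genes.

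The kept wells held 905272 counts in the organoid library, against 928113 and 1209081 counts on intestine plates 1 and 2. Median depth per well was 11906 counts, against 9543 and 13132 counts, and the median number of genes per well was 4037, against 3978 and 4918. Spike-in RNA made up 4.61% of counts in the organoid library, against 0.884% and 0.922% on the plates. Its part in the results was not tested. All 12 epithelial markers were counted in each group, and their summed level was 5187 CPM in organoid cells, against 5426 and 5135 CPM. Epcam was counted in 74 of 74 organoid wells and in all 75 and 84 wells from intestine. Of 28 immune cell markers in the files, 4 had any count in organoid cells and 6 in cells from intestine, with a summed level of 4.97 CPM, against 8.73 and 12.4 CPM. Ptprc, Cd79a, Ms4a1, Csf1r and Tyrobp had 0 counts in all 3 libraries. Others were counted: Cd79b had 0 counts in organoid cells, against 5 and 2, and Itgam had 2, against 3 and 11. Itgae had 0 counts, against 1 and 2, Cd3e had 0, against 0 and 1, and Lyz2 had 1, against 1 and 2. Stromal markers summed to 16.9 CPM, against 6.11 and 9.75 CPM, with Col1a1, Col1a2 and Pecam1 at 0. The Y-linked gene Ddx3y was counted in all 3 libraries, with 62.6 CPM, against 79.5 and 62.4 CPM.

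Of 10632 genes tested with edgeR's quasi-likelihood test, 81 were higher and 72 were lower in organoid Lgr5-positive cells at a false discovery rate of 0.05. This is 0.762% of the tested genes in the upward and 0.677% in the downward direction, or 1.44% in either. At an unadjusted p under 0.05, 628 genes were higher (5.91%) and 648 lower (6.09%), and DESeq2 called 117 higher (1.1%) and 68 lower (0.64%). The median log2 fold change over all genes was −0.01. The test took the spread from all 12 replicates of 5 groups, so that the lone organoid library is assumed to vary like the others. With library totals in place of TMM scaling the split was 51 higher and 92 lower, and the median of all genes was −0.19. CPM values are counts per 1000000 counts of the TMM-scaled library total, and log2 fold changes are organoid over intestine. By gene list, 7 of 8 tested MHC class II genes and 9 of 30 MHC class I and interferon genes were called lower, and 10 of 30 glycolysis and hypoxia genes were called higher.

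**Figure D1:**
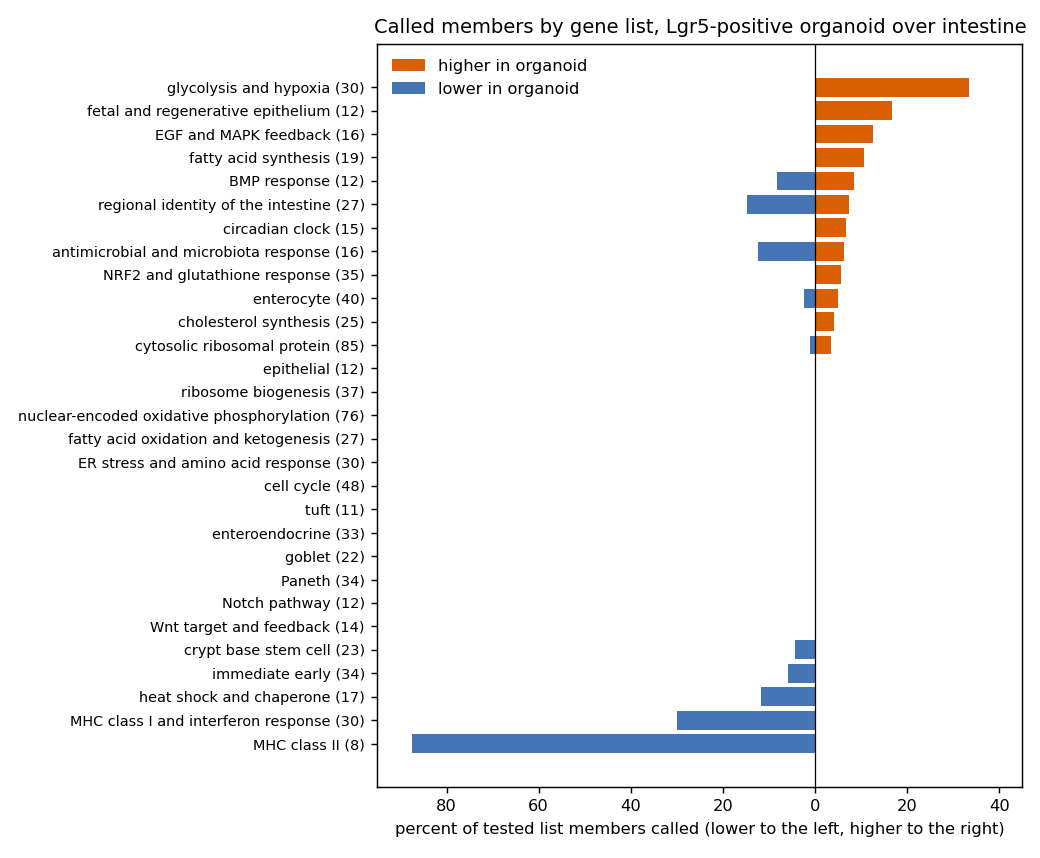
Share of tested members called in Lgr5-positive organoid cells relative to cells from intestine, for the gene lists with at least 8 tested members (number in brackets). The bar of MHC class II genes reaches farthest to the left (7 of 8 lower), and that of glycolysis and hypoxia genes farthest to the right (10 of 30 higher).

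Lgr5 itself (chromosome 10, 115450311 to 115587780, minus strand, GRCm38) stood at 252 CPM in organoid cells, against 148 and 112 CPM on the plates. The organoid library was above both plates, with a log2 fold change of 0.96 ± 0.44 (SE), but the difference did not pass the test (adjusted p = 0.406, edgeR). In a fit of the 3 compared libraries alone its log2 fold change was 0.96, and it passed. That fit takes its spread from the 2 plates alone, and it called more genes in both directions than the fit of 12 replicates. Lgr5 transcripts were found in 65 of 74 organoid wells, against 56 of 75 and 71 of 84 wells from intestine. With each well thinned to 1500 counts, the share was 27.0% (exact 95% interval 17.4 to 38.6%) in organoid cells, against 29.3% (19.4 to 41.0%) and 17.9% (10.4 to 27.7%) on the plates. The intervals, which cover counting error only, overlap.

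Most of the crypt base stem cell list was not called. Of 25 crypt base stem cell genes 23 were tested, 0 were called higher and 1 was called lower, with a median log2 fold change of 0.28 against −0.01 for all genes. At an unadjusted p under 0.05 there were 6 higher and 2 lower members, against 5.91% and 6.09% of all genes, and DESeq2 called 0 higher and 1 lower. Slc12a2, a sodium, potassium and chloride cotransporter abundant in crypts, had 686 CPM in organoid cells, against 689 and 488 CPM. Cdca7, a Myc-regulated chromatin factor, had 431 CPM, against 335 and 309 CPM. Smoc2, a secreted matrix protein enriched in Lgr5 cells, had 419 CPM, against 249 and 215 CPM, and Sox9, a crypt transcription factor, had 264 CPM, against 186 and 155 CPM. Hopx, a homeodomain protein, had 332 CPM, against 201 and 184 CPM. Cdca7, Smoc2, Sox9 and Hopx were above both plates, and none passed the test (adjusted p from 0.19 to 0.639). In the fit of the 3 libraries alone, with a spread from the 2 plates only, Smoc2 and Hopx passed. Their log2 fold changes there were 0.86 and 0.79. The member that fell was Prom1, which encodes the membrane glycoprotein prominin-1. It had 89.5 CPM in organoid cells, against 305 and 223 CPM (log2 fold change −1.56 ± 0.30, adjusted p = 0.0181, edgeR). Without plate 1 its adjusted p was 0.138.

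The pathways that maintain the stem cell gave no call in 2 of 4 lists. Among 14 tested Wnt targets 0 were called in either direction, with 0 higher and 1 lower at an unadjusted p under 0.05 and 0 by DESeq2. The Wnt feedback gene Axin2 had 216 CPM in organoid cells, against 195 and 161 CPM, Myc had 204 CPM, against 125 and 118 CPM, and Ccnd1, a cyclin of G1 phase, had 251 CPM, against 253 and 283 CPM. Myc passed in the fit of the 3 libraries alone (log2 fold change 0.75), whose spread came from the 2 plates only. Among 12 tested Notch genes 0 were called, with 1 higher and 1 lower at an unadjusted p under 0.05 and 0 by DESeq2. The Notch target Hes1 had 308 CPM, against 209 and 243 CPM. BMP response genes went both ways, with 1 higher and 1 lower of 12 tested. At an unadjusted p under 0.05, 1 was higher and 3 lower, and DESeq2 called 1 higher and 2 lower. Id1, a direct target of BMP signals, fell to 21.9 CPM in organoid cells, against 78.6 and 93.0 CPM (adjusted p = 0.0276, edgeR). Id2, of the same family of helix-loop-helix inhibitors, rose to 76.5 CPM, against 23.6 and 21.5 CPM (adjusted p = 0.00659, edgeR). Of 16 tested EGF and MAPK feedback genes 2 rose and 0 fell, against 0.762% and 0.677% of all genes. At an unadjusted p under 0.05, 3 were higher and 0 lower, against 5.91% and 6.09% of all genes. DESeq2 called 2 higher and 0 lower. Etv4, an ETS factor downstream of ERK, had 54.7 CPM in organoid cells, against 6.99 and 4.55 CPM (log2 fold change 3.25 ± 0.59, adjusted p = 0.0131, edgeR). Phlda1, another gene induced by ERK, had 492 CPM, against 166 and 138 CPM (adjusted p = 0.0338). The calls of Id1, Etv4 and Phlda1 were lost without either plate, and that of Id2 without plate 2 (adjusted p = 0.0833).

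Proliferation genes were not called in either direction. Of 48 tested cell cycle genes 0 were called, with 2 higher and 0 lower at an unadjusted p under 0.05 and 0 by DESeq2, and the list's median log2 fold change was 0.31. Top2a, the topoisomerase of dividing cells, had 421 CPM in organoid cells, against 383 and 310.1 CPM. Stmn1 had 676 CPM, against 456 and 419 CPM, and Hmgb2 had 700 CPM, against 505 and 366 CPM. Per well, cell cycle transcripts made up a median of 76.7 per 10000 counts in organoid cells, against 80.9 and 81.5 per 10000. The 10th and 90th percentile wells held 15.7 and 157 per 10000 in organoid cells, against 33.0 and 160.4 per 10000 on plate 1 and 27.6 and 150.0 per 10000 on plate 2.

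MHC class II transcripts were not detected in the organoid library, apart from the list member Ctss. The class II molecules H2-A and H2-E present peptides to CD4 T cells, Cd74 is their invariant chain, H2-DM loads the peptide, and Ciita is the transactivator that switches these genes on. H2-Ab1 (chromosome 17, 34257689 to 34269419, plus strand) had 0 CPM in organoid cells, against 560 and 384 CPM on the plates. H2-Aa had 0 CPM, against 506 and 410 CPM, and H2-Eb1 had 0 CPM, against 476 and 421 CPM. Cd74 had 0 CPM, against 335 and 246 CPM. None of the 4 genes had 1 count among the 905272 of the organoid library, and both plates held them all. H2-DMa had 0 CPM, against 127 and 127 CPM, H2-DMb1 had 0 CPM, against 105 and 85.2 CPM, and Ciita had 0 CPM, against 68.1 and 83.9 CPM. A count of 0 allows up to 3 counts, so H2-Ab1 was at least 154-fold, H2-Aa at least 151-fold, H2-Eb1 at least 149-fold and Ciita at least 25.5-fold lower. Adjusted p-values of the 7 genes ran from 3.82e-05 to 0.00186 (edgeR), and all 7 were also called without plate 1 and without plate 2. Of 11 listed genes 8 were tested and 7 fell. The member that was not called was Ctss, a lysosomal protease, with 31.8 CPM against 80.3 and 65.0 CPM (adjusted p = 0.272), and it was chosen after its values were seen. The list's median log2 fold change, with genes at 0 set to their bound, was −5.99.

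The class II transcripts were spread over nearly every cell from intestine. At least 1 count of the 7 genes was found in 0 of 74 organoid wells, against 75 of 75 and 83 of 84 wells from intestine. The exact 95% interval of the organoid share was 0 to 4.86%. After thinning to 1500 counts, H2-Ab1 alone was found in 0 of 74 organoid wells, against 74.7% (exact 95% interval 63.3 to 84.0%) and 60.7% (49.5 to 71.2%) of wells on the plates. The 7 genes together made up a median of 0 per 10000 counts in organoid wells, against 30.2 and 22.4 per 10000. The well with most H2-Ab1 held 4.99% and 5.42% of the H2-Ab1 counts of plates 1 and 2.

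**Figure D2:**
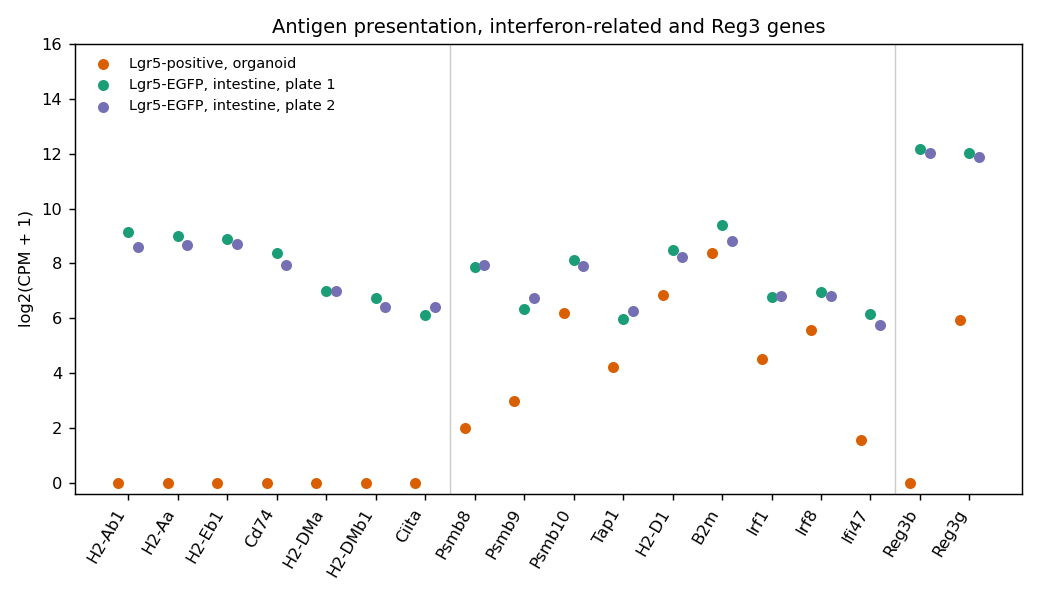
Level of antigen presentation, interferon-related and Reg3 genes as log2(CPM + 1) in the Lgr5-positive organoid library and both plates of Lgr5-EGFP cells from intestine (1 point per library). The 7 class II genes and Reg3b sit at 0 in the organoid library, and of the genes plotted B2m lies closest to its plates (H2-K1 is not plotted).

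Class II promoters carry an X box and a Y box close to the start, the elements on which the Ciita complex assembles. The 250 bases before the start of the 3 genes below, from RefSeq on GRCm38.p6, are shown for these elements. Capitals mark every match, on either strand, of GNAACT (the start of the X box) and of GATTGG (the Y box).
H2-Aa, chr17:34287824-34288073, minus strand: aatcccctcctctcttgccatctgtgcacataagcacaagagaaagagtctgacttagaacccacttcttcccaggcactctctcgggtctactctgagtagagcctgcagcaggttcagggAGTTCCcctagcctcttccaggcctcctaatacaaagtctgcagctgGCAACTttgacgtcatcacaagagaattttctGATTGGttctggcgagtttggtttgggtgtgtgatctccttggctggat
H2-Eb1, chr17:34305617-34305866, plus strand: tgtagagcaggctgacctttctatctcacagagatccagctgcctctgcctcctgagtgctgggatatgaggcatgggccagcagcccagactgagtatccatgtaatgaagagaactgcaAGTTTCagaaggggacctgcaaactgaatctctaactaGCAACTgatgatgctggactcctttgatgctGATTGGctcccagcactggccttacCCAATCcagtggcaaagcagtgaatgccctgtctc
H2-DMb1, chr17:34152941-34153190, plus strand: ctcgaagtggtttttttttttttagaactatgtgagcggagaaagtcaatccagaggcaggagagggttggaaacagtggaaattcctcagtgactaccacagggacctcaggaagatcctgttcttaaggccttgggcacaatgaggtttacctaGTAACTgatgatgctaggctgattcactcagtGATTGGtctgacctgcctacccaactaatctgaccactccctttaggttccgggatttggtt
In each of the 3 a GNAACT match lies upstream of a GATTGG match, and the motifs do not overlap. Over all 32851 promoters of the RefSeq table, 37.3% hold GNAACT, 14.6% hold GATTGG and 5.24% hold both. Of the 7 fallen class II genes 4 had an entry, 4 of them held GATTGG and 3 held both. The shares over all promoters count promoter entries, of which a gene can have several. A match is a description of the letters and no evidence of binding.

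Genes of MHC class I and of the interferon response fell less uniformly. Of 36 listed genes 30 were tested, 9 fell and 0 rose, and the median log2 fold change was −1.58 (−1.50 with genes at 0 set to their bound). At an unadjusted p under 0.05 the counts were 17 lower and 0 higher, against 6.09% and 5.91% of all genes, and DESeq2 called 9 lower and 0 higher. The immunoproteasome subunit Psmb8 had 3 counts in the organoid library, or 2.98 CPM, against 231 and 243 CPM. It was 79.7-fold higher in cells from intestine, with a counting interval of 27.2 to 388 (adjusted p = 8.16e-05, edgeR). Psmb9, the second such subunit, had 6.96 CPM in organoid cells, against 79.5 and 107 CPM, and Psmb10, the third, had 72.6 CPM, against 281 and 241 CPM. Psmb8 and Psmb9 were near the floor of the organoid library while Psmb10 was still counted in 44 of its 74 wells.

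Transcription factors of the pathway fell as well. Irf1, a factor induced by interferon, had 21.9 CPM in organoid cells, against 110.0 and 112 CPM, and Irf8 had 46.7 CPM, against 122 and 111 CPM (adjusted p = 0.0455, edgeR). Ifi47, an interferon-induced GTPase, had 2 counts in the organoid library (1.99 CPM), against 70.7 and 53.3 CPM, and was 30.6-fold higher in cells from intestine (counting interval 8.32 to 254). The peptide transporter Tap1 had 17.9 CPM, against 62.0 and 75.4 CPM. The class I heavy chain H2-D1 had 115 CPM, against 357 and 304 CPM, and passed the test (adjusted p = 0.0159). The heavy chain H2-K1 had 337 CPM, against 505 and 425 CPM, and the light chain B2m had 332 CPM, against 672 and 454 CPM. H2-K1 and B2m were below both plates but did not pass (adjusted p = 0.57 and 0.51). AW112010, a transcript outside the list, had 3 counts in the organoid library (2.98 CPM), against 91.7 and 74.8 CPM (adjusted p = 0.000132), and was 27.5-fold higher in cells from intestine (counting interval 9.28 to 134). The calls of H2-D1 and Irf8 were lost without either plate, that of Psmb10 without plate 1 (adjusted p = 0.0532) and that of Tap1 without plate 2 (adjusted p = 0.078).

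Reg3b and Reg3g, secreted C-type lectins that act on bacteria, fell in organoid cells. Reg3b (chromosome 6, 78370657 to 78373466, plus strand) had 0 CPM in organoid cells, against 4667 and 4141 CPM (adjusted p = 0.000132, edgeR). This is at least 1464-fold lower. Reg3g (chromosome 6, 78466269 to 78468872, minus strand) had 60.6 CPM, against 4213 and 3809 CPM (log2 fold change −6.04 ± 0.78, adjusted p = 0.00136). Reg3b was counted in 0 of 74 organoid wells, against 75 of 75 and 83 of 84 wells from intestine, and Reg3g in 31 of 74, against 75 of 75 and 83 of 84. Levels between cells from intestine were wide: the 10th and 90th percentile wells held 11.7 and 106 Reg3b counts per 10000 on plate 1, and 9.03 and 90.4 on plate 2.

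The rest of the antimicrobial and microbiota list gave 1 more call. Of 24 genes 16 were tested, 2 fell and 1 rose, against 0.677% and 0.762% of all genes. The median log2 fold change was −2.49 (−1.13 with genes at 0 set to their bound). At an unadjusted p under 0.05, 8 were lower and 1 higher, against 6.09% and 5.91% of all genes. DESeq2 called 3 lower and 0 higher. The gene that rose was Retnlb, a goblet cell product, with 252 CPM in organoid cells, against 33.2 and 67.6 CPM (adjusted p = 0.0413, edgeR). It came from 6 of 74 organoid wells, against 4 of 75 and 5 of 84, and 1 well held 41.3% of its counts in organoid cells, against 89.5% and 96.2% on the plates. Its call was lost with DESeq2 (adjusted p = 1), without plate 1 (0.291), without plate 2 (0.122) and with library totals (0.0563). Pigr, the receptor that carries antibodies across the epithelium, had 1254 CPM, against 1835 and 1635 CPM (adjusted p = 0.773).

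Glycolysis genes were higher in organoid Lgr5-positive cells. Of 31 glycolysis and hypoxia genes 30 were tested, 10 rose and 0 fell, against 0.762% of all genes rising. The median log2 fold change was 1.00. At an unadjusted p under 0.05 the counts were 17 higher and 1 lower, against 5.91% and 6.09% of all genes, and DESeq2 called 11 higher and 1 lower. With lineage-marked wells left out 9 rose and 1 fell. Without plate 1 the called members were Pkm, Gapdh and Pgk1, and without plate 2 they were Pkm, Pdk1 and Bnip3, so that Pkm alone was called in both.

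Enzymes of several steps of the pathway rose. Pkm, pyruvate kinase (chromosome 9, 59656368 to 59679375, plus strand), had 770.4 CPM in organoid cells, against 169 and 153 CPM (log2 fold change 2.25 ± 0.32, adjusted p = 0.00217, edgeR). Gapdh had 1138 CPM, against 396 and 325 CPM (1.66 ± 0.28, adjusted p = 0.00753). Pgk1, phosphoglycerate kinase, had 572 CPM, against 220.1 and 185 CPM (adjusted p = 0.00615). For these 3 enzymes the organoid library stood above both plates by more than the plates differed from each other. Aldoa, an aldolase, had 600.4 CPM, against 196 and 163 CPM, and Tpi1, triosephosphate isomerase, had 790.3 CPM, against 315 and 360.2 CPM. Pfkl, a phosphofructokinase, had 93.4 CPM, against 21.0 and 28.0 CPM. Pdk1, the kinase that keeps pyruvate out of the mitochondrion, had 93.4 CPM, against 26.2 and 44.2 CPM. Ldha, lactate dehydrogenase, had 843 CPM, against 479 and 421 CPM, and did not pass (adjusted p = 0.188).

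Some genes known as targets of hypoxia-inducible factor rose and others did not pass. Slc16a3, the lactate exporter, had 14 counts in the organoid library, against 1 and 1 on the plates (18.7-fold higher in organoid cells, counting interval 4.29 to 169). Bnip3, a mitophagy receptor, had 35.8 CPM, against 0 and 3.25 CPM, and P4ha1, a collagen prolyl hydroxylase, had 24.9 CPM, against 4.37 and 2.60 CPM. All 3 were low transcripts, and their adjusted p-values were 0.0455, 0.0175 and 0.0395 (edgeR). The calls of Slc16a3 and P4ha1 were lost without either plate, and that of Bnip3 without plate 1 (adjusted p = 0.113, edgeR). After thinning wells to 1500 counts the log2 fold change of Slc16a3 was 0.00. Egln3, a prolyl hydroxylase of the factor, had 20.9 CPM in organoid cells, against 0.873 and 1.30 CPM (adjusted p = 0.0549, edgeR). Car9, a carbonic anhydrase, had 158 CPM, against 78.6 and 78.7 CPM (adjusted p = 0.105). Vegfa, a vascular growth factor, had 74.6 CPM, against 37.5 and 37.1 CPM (adjusted p = 0.375), and the glucose transporter Slc2a1 had a log2 fold change of 0.33 (adjusted p = 0.861). These 4, with Ankrd37, Ndrg1 and Adm, are known targets in the list that did not pass, and Adm had 0 counts in the organoid library. Hk2, a hexokinase, ran the other way with 49.7 CPM, against 163 and 146 CPM, and did not pass (adjusted p = 0.088, edgeR). Its log2 fold change was −1.63 ± 0.43, and it was the 1 list member lower at an unadjusted p under 0.05. Hk2 and these targets were chosen after their values were seen.

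**Figure D3:**
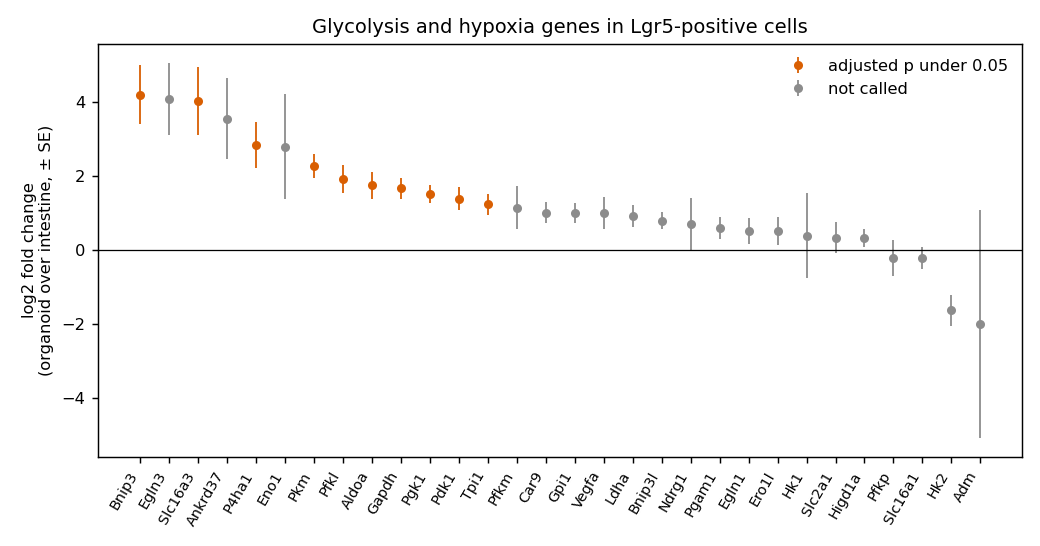
Fitted log2 fold change (organoid over intestine, bars are SE) of the 30 tested glycolysis and hypoxia genes, with called genes in colour. The 10 called genes lie above 0, from Tpi1 at 1.23 to Bnip3 at 4.19.

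The core of the hypoxia response element reads ACGTG. The 250 bases before the start of Slc16a3, Pgk1 and Bnip3, from RefSeq on GRCm38.p6, are given because each holds it, with every match on either strand in capitals.
Slc16a3, chr11:120948817-120949066, plus strand: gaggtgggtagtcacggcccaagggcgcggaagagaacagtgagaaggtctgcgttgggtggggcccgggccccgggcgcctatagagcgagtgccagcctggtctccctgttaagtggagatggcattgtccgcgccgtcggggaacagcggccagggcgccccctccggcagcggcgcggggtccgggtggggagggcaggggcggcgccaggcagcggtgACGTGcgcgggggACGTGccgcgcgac
Pgk1, chrX:106186850-106187099, plus strand: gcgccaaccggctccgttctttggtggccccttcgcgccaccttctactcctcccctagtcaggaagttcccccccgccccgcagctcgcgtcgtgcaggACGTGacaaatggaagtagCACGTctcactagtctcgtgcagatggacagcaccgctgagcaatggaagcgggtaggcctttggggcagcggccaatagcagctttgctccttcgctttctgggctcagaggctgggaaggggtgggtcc
Bnip3, chr7:138909507-138909756, minus strand: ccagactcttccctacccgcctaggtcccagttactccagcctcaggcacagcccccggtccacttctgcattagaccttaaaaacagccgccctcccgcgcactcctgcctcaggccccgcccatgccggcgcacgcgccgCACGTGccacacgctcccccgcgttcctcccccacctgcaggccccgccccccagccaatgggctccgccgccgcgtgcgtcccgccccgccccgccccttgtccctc
In Bnip3 the 2 matches are the same CACGTG read on both strands. Of the 10 genes that rose all had an entry and 6 held ACGTG, against 16.6% of all 32851 promoters. The 16.6% is a share of promoter entries, of which a gene can have several (27025 gene symbols). The list was chosen to hold known targets of the factor, so the 6 of 10 is no result of these data. A match is no evidence of binding.

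Per well, the whole glycolysis and hypoxia list made up a median of 70.9 per 10000 counts in organoid cells, against 35.4 and 35.1 per 10000 on the plates. The 10th percentile organoid well held 37.3 per 10000, above both plate medians. The highest wells held 128 per 10000 in organoid cells, against 60.5 and 78.7 per 10000. After thinning to 1500 counts, Pgk1 was found in 55.4% of organoid wells (exact 95% interval 43.4 to 67.0%), against 21.3% (12.7 to 32.3%) and 27.4% (18.2 to 38.2%). Of 76 tested mitochondrial respiration genes encoded in the nucleus 0 were called, also at an unadjusted p under 0.05 and by DESeq2, and their median log2 fold change was 0.11.

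**Figure D4:**
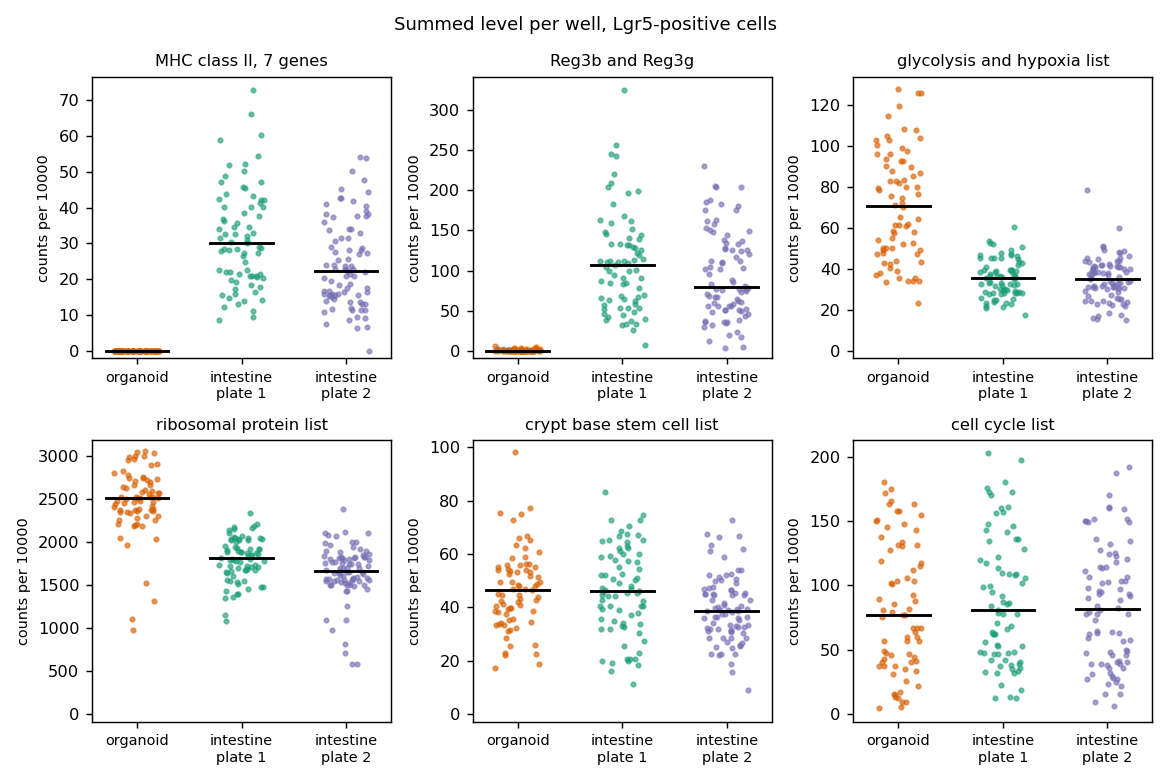
Summed level per well, in counts per 10000 counts of the well, for 6 gene groups in Lgr5-positive cells (points are wells, lines are medians). Organoid wells lie at 0 for class II genes, higher for glycolysis and ribosomal protein genes, and in the same range as plates for stem cell and cell cycle genes.

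Transcripts of the ribosome's proteins took a larger part of the organoid cells' RNA. Their summed level was 221102 CPM in organoid cells, against 140796 and 129180 CPM. Per well they made up a median of 2513 per 10000 counts, against 1816 and 1669 per 10000, and the 10th percentile organoid well, at 2186, was above the 90th percentile wells of both plates, at 2093 and 1985. Of 85 tested ribosomal protein genes 80 had a fitted increase, with a median log2 fold change of 0.77 (0.60 with library totals), while 3 rose and 1 fell at the test's threshold. At an unadjusted p under 0.05 there were 64 higher and 1 lower, and DESeq2 called 33 higher and 1 lower. Those that rose, Rpl3, Rpl23a and Rpl32, encode large subunit proteins.

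Rpl3 had 2394 CPM in organoid cells, against 1290 and 1069 CPM (log2 fold change 1.02 ± 0.23, adjusted p = 0.0413, edgeR). Rpl23a had 3406 CPM, against 1742 and 1637 CPM, and Rpl32 had 2830.1 CPM, against 1438 and 1222 CPM. The most abundant member, Rps12, had 7542 CPM, against 4727 and 4615 CPM (adjusted p = 0.286). The gene that fell was Rps4y2, with 0 CPM, against 60.3 and 51.4 CPM. Ribosomal protein genes have many processed copies whose reads can be shared, so single members are uncertain. The 3 rises were lost without either plate, with library totals, with barcode numbers and after thinning. Without wells rich in lineage genes 26 members rose. Genes that build the ribosome gave 0 calls of 37, with 2 higher and 6 lower at an unadjusted p under 0.05 and 0 by DESeq2, and a median log2 fold change of −0.27. Npm1, a nucleolar chaperone, had 1480.2 CPM, against 953 and 720 CPM, and Ncl, nucleolin, had 732 CPM, against 699 and 800.3 CPM.

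The 4 genes that fell in a list of regional genes of the gut were at 0 in the organoid library. Of 27 tested regional identity genes 4 fell and 2 rose, against 0.677% and 0.762% of all genes. Their median log2 fold change was −0.70. At an unadjusted p under 0.05, 8 were lower and 4 higher, against 6.09% and 5.91% of all genes. DESeq2 called 1 lower and 2 higher, and did not call Bex4, Hoxb7 and Hoxb9. Bex1, encoded on the X chromosome, had 0 CPM in organoid cells, against 102 and 81.9 CPM, at least 30.4-fold lower (adjusted p = 0.00186, edgeR). Its neighbour in the family, Bex4, had 0 CPM, against 46.3 and 42.9 CPM. Hoxb7 had 0 CPM, against 27.1 and 29.3 CPM, and Hoxb9 had 0 CPM, against 19.2 and 20.8 CPM. Both are homeobox factors of the cluster that patterns the trunk from front to back. Bex1 was found in 47 of 75 and 42 of 84 wells on the plates, so it was spread over cells. Gata4, a factor of the proximal small intestine, rose to 76.5 CPM, against 32.3 and 30.6 CPM (adjusted p = 0.0395). Adh1, an alcohol dehydrogenase, rose to 376 CPM, against 56.8 and 101 CPM (adjusted p = 0.0174). Of these 6, only Bex1 was called both without plate 1 and without plate 2. The segment of intestine behind each library is not given in the labels, so culture and segment cannot be told apart here. The general intestinal factors were not called: Cdx2 had 139 CPM, against 156 and 188 CPM, and Hnf4a had 315 CPM, against 302 and 290 CPM.

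Genes with large fitted increases had varied functions. Clu, a secreted chaperone known from regenerating epithelium, had 51.7 CPM in organoid cells, against 0.873 and 1.95 CPM (log2 fold change 5.01 ± 0.86, adjusted p = 0.00818, edgeR), and was counted in 22 organoid wells, against 1 and 3 wells. Krt23, a keratin, had 57.7 CPM, against 12.2 and 13.0 CPM. These were the 2 genes that rose among 12 tested fetal and regenerative genes, of which 0 fell, against 0.762% and 0.677% of all genes. At an unadjusted p under 0.05 and by DESeq2 the counts were also 2 higher and 0 lower. The unnamed transcript AA465934 had 54.7 CPM, against 1.75 and 1.95 CPM. Rgcc, a regulator of the cell cycle, had 211 CPM, against 22.7 and 23.4 CPM (3.18 ± 0.35, adjusted p = 0.00029). Mia, a small secreted protein, had 78.5 CPM, against 8.73 and 8.45 CPM. Ttr, the thyroid hormone carrier transthyretin, had 132 CPM, against 22.7 and 17.6 CPM (2.72 ± 0.31, adjusted p = 0.000373). The row Gm5506 had 176 CPM, against 21.0 and 28.0 CPM. Rgcc, Mia and Ttr were also called without plate 1 and without plate 2, and the calls of Clu, Krt23, AA465934 and Gm5506 were lost without either.

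Several metabolic enzymes and transporters rose. Hsd17b13, a lipid droplet dehydrogenase, had 121 CPM, against 6.11 and 17.6 CPM (3.28 ± 0.40, adjusted p = 0.0008, edgeR). The carboxylesterases Ces2e and Ces2g had 141 and 59.6 CPM in organoid cells, against 18.3 and 16.9 CPM of Ces2e and 7.86 and 16.3 CPM of Ces2g. Cmbl, a hydrolase, had 103 CPM, against 12.2 and 15.6 CPM, and Slc23a1, a vitamin C transporter, had 165 CPM, against 44.5 and 27.3 CPM. Hsd17b13 was also called without plate 1 and without plate 2. The calls of Ces2e and Cmbl were lost without either plate, that of Ces2g without plate 1 (adjusted p = 0.0653) and that of Slc23a1 without plate 2 (adjusted p = 0.175).

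Lipid and detoxification lists gave few calls. Over all genes 0.762% rose and 0.677% fell. Of 25 tested cholesterol synthesis genes 24 had a fitted increase, with a median log2 fold change of 0.69, and 1 rose and 0 fell. At an unadjusted p under 0.05, 10 were higher and 0 lower, against 5.91% and 6.09% of all genes. Hmgcs1, the synthase at the start of the pathway, had 233 CPM, against 114 and 135 CPM (adjusted p = 0.218). Of 19 fatty acid synthesis genes 2 rose and 0 fell, and both are stearoyl-CoA desaturases. Scd2 had 386 CPM, against 124 and 114 CPM, and Scd1 had 13 counts in the organoid library, against 0 and 0 (at least 11.6-fold higher). Of 35 tested NRF2 and glutathione genes 2 rose and 0 fell, the conjugating enzyme Gstm2, with 114 CPM against 44.5 and 48.1 CPM, and the epoxide hydrolase Ephx1, with 59.6 CPM against 15.7 and 13.0 CPM. The calls of Scd2, Gstm2 and Ephx1 were lost without either plate, and that of Scd1 without plate 2 (adjusted p = 0.0679, edgeR).

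Heat shock and immediate early lists, which respond to cell handling, gave 4 calls, each of a lower gene. Over all genes 0.677% were called lower. Of 17 tested heat shock and chaperone genes 2 fell and 0 rose. Hspa1a had 1 count in the organoid library (0.994 CPM), against 31.4 and 49.4 CPM on the plates, and was 42.0-fold higher in cells from intestine, with a counting interval of 7.38 to 1673. Hspa1b had 3.98 CPM, against 69.0 and 64.4 CPM (adjusted p = 0.00698, edgeR). Both are the inducible Hsp70. The constitutive Hspa8 had 1836 CPM, against 2046 and 1868 CPM. Of 34 tested immediate early genes 2 fell and 0 rose, with a median log2 fold change of −1.43, and 14 were lower and 1 higher at an unadjusted p under 0.05. DESeq2 called 2 lower and 1 higher, and without lineage-marked wells 7 fell and 1 rose. Socs3, the feedback inhibitor of STAT3 signals, had 5.96 CPM, against 34.9 and 38.4 CPM (adjusted p = 0.0196), and Sgk1, a kinase, had 0 CPM, against 7.86 and 13.7 CPM. Jun had 162 CPM, against 307 and 336 CPM (adjusted p = 0.343). The dissociation differed between the groups, so these genes cannot be told apart from handling. The calls of Socs3 and Sgk1 were lost without either plate.

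Markers of mature cell types gave few calls, and high levels of Paneth genes rested on few wells. Of 34 Paneth, 22 goblet, 33 enteroendocrine and 11 tuft genes tested, 0 were called, with 5, 6, 4 and 3 lower and 2, 0, 0 and 0 higher at an unadjusted p under 0.05, where 6.09% of all genes were lower and 5.91% higher. DESeq2 called 1 goblet and 1 enteroendocrine gene lower. Paneth genes made up at least 10% of counts in 4 of 74 organoid wells, against 2 of 75 and 5 of 84 wells from intestine. The highest single well reached 40.3%, against 23.7% and 47.8%. The Paneth defensin Defa24 had 4074 CPM, against 2153 and 3701 CPM. Muc2, the goblet mucin, had 72.6 CPM, against 708 and 240 CPM (adjusted p = 0.368), and without lineage-marked wells its log2 fold change was −5.78 (adjusted p = 0.0265). Gcg, the enteroendocrine hormone glucagon precursor, had 0 CPM, against 0 and 339 CPM, and 1 well held 97.5% of the counts of plate 2. Leaving out wells with at least 10% lineage transcripts (4 organoid wells, against 2 and 6) gave 142 higher and 117 lower genes, among them 147 of the 153 called with all wells, all 147 in the same direction.

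Cells not selected for Lgr5 gave a second set of libraries for culture against intestine, with no library shared. Both comparisons came from the same fit and shared its estimate of the spread, so their calls are not independent. In whole organoids relative to YFP-positive progeny 13.4% of the tested genes were higher and 9.45% lower (edgeR). Of the 81 genes higher in organoid Lgr5-positive cells 48 (59.3%) were also higher there, which is 3.36% of the genes higher there, and 11 were lower. Of the 72 genes lower in organoid Lgr5-positive cells 43 (59.7%) were also lower, which is 4.28% of the genes lower there, and 4 were higher. H2-Ab1 had 0.396 and 0 CPM in whole organoids, against a lowest of 179, a median of 200 and a highest of 279 CPM on the YFP plates. Pgk1 had 1254 and 1440 CPM, against 365, 415 and 444 CPM. All 7 class II genes were lower, and 27 of 30 glycolysis and hypoxia genes were higher.

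**Figure D5:**
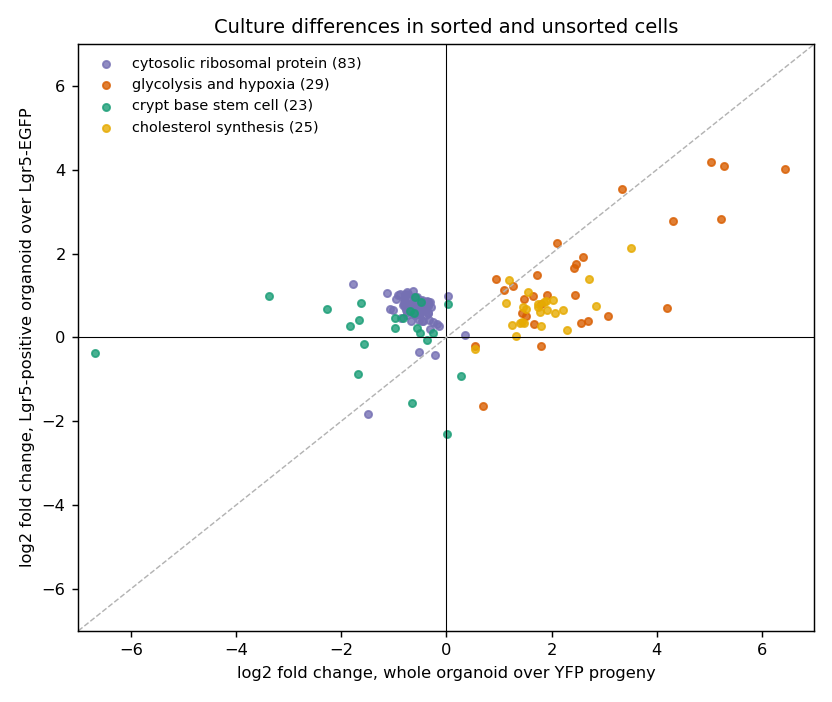
Fitted log2 fold changes of list members in both culture comparisons, with cells not selected for Lgr5 on the horizontal and Lgr5-positive cells on the vertical axis (1 point per gene counted in both groups of Lgr5-positive cells, dashed line at equal change). Most ribosomal protein genes lie left of 0 and above 0, and most glycolysis and cholesterol genes lie right of the dashed line.

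The difference between the 2 culture differences was tested in the same fit. It passed for 247 genes in the upward direction (2.32%) and for 220 in the downward direction (2.07%), or 4.39% in either. In the ribosomal protein list it passed for 56 of 85 genes upward and 1 downward and a median difference of 1.30, against −0.09 for all genes. Rpl3 had 1429 and 1534 CPM in whole organoids, against 2673, 2762 and 2981 CPM on the YFP plates (lowest, median, highest), while in Lgr5-positive cells the organoid library was the higher one. Of 23 stem cell genes 9 passed upward and 0 downward, and of 48 cell cycle genes 9 and 0. Cdca7 had 72.0 and 92.1 CPM in whole organoids, against 204, 255 and 346 CPM. Of 30 glycolysis and hypoxia genes 6 passed downward and 0 upward, and their median difference was −0.96. Lgr5 had 30.1 and 63.2 CPM in whole organoids, against 48.0, 66.1 and 96.8 CPM, and its difference did not pass (adjusted p = 0.138). Whole organoids and YFP cells also differ in their mix of cell types, so these differences cannot be told apart from composition.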

How the data were processed

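Single-cell CEL-seq tables, with wells in columns and genes in rows, were used. The deposited values are the authors' estimated counts of transcripts: 3897295 of 3897321 values above 0 turned into whole numbers of barcodes (within 1e-06) once a correction for 256 random barcodes was undone. The aligner was BWA 0.6.2-r126 and the build mm10, per the submitters' processing notes. How genes were counted and annotated is not given in those notes. Another 192 columns of wells could not be tied to a label and were not used. Lanes and plates of 1 replicate are pooled in the tables or were summed.

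Values were rounded. Wells under 1500 gene counts were left out, and the others were summed per replicate without spike-ins and dsRed. Genes were tested with edgeR 4.0.16 in R 4.3.3 (TMM, filterByExpr, quasi-likelihood test, Benjamini-Hochberg adjustment, 0.05). One fit held 12 replicates: 2 of whole organoids, 2 of Reg4-positive organoid cells, 1 of Lgr5-positive organoid cells, 2 of Lgr5-EGFP cells and 5 of YFP cells, with 7 residual degrees of freedom. The procedure was tested on simulated data. DESeq2 1.42.0 was an alternative. Shares of wells have exact (Clopper-Pearson) 95% intervals. These, and the limit of 3 counts for a count of 0, cover counting error only. Of the fold from summed counts and that from mean levels, the smaller was taken as the bound.

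Genes were named by a rule: Lgr5, the 15 largest increases and 15 largest decreases among called genes reaching 50 CPM in either group and outside the range of the plates, the 5 members of each list with the highest level, and called list members. The text gives part of these. Ctss, Hk2 and the hypoxia targets that did not pass were chosen after their values were seen. The genes, lists and tests were chosen with earlier results of these data known. Coordinates came from GENCODE M21 and promoters from RefSeq, both on GRCm38. Mitochondrially encoded genes were not analysed here. Some called genes are not reported here.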

Additional observations from a re-analysis of the deposited data

Results flagged for a closer look

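The results below stand out because the culture difference of Lgr5-positive cells differed from that of cells not selected for Lgr5 (difference of the 2 log2 fold changes, edgeR's quasi-likelihood test, adjusted over all genes). For genes at 0 in the organoid library the fitted size depends on the prior count and is no bound. No cause was tested, and the cell type mix of those libraries cannot be told apart from a difference in culture response.

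In the stem cell and cell cycle lists the difference was 2.08 for Cdca7, 1.35 for Smoc2, 1.32 for Sox9, 2.11 for Axin2, 1.58 for Hmgb2 and 2.17 for Stmn1 (adjusted p from 0.00709 to 0.0427). Among ribosome genes it was 1.94 for Rpl3, 1.79 for Rpl23a, 1.83 for Rpl32, 1.38 for Npm1 and −8.55 for Rps4y2 (adjusted p from 0.00328 to 0.0309).

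In immune genes the difference was −6.05 for H2-DMa, −1.31 for H2-D1, −2.52 for AW112010, −14.31 for Reg3b and −4.56 for Reg3g (adjusted p from 0.000348 to 0.0391). Reg3b had 350.3 and 124 CPM in whole organoids, against a lowest of 271, a median of 374 and a highest of 625 CPM on the YFP plates, while the Lgr5-positive organoid library had 0 CPM. Reg3g had 135 and 188 CPM in whole organoids, against 280.1, 486 and 599 CPM.

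Of the other genes named, the difference was 1.55 for Id2, 2.27 for Rgcc, 4.07 for Mia, 2.25 for Ces2g, 1.27 for Gata4, −10.32 for Hoxb9 and −3.66 for Socs3 (adjusted p from 0.0026 to 0.0488). It was 4.29 ± 0.38 (SE) for Ttr (adjusted p = 4.82e-05), which was higher in organoid Lgr5-positive cells and lower in whole organoids. Ttr had 30.9 and 26.3 CPM in whole organoids, against 70.7, 79.8 and 117 CPM on the YFP plates. The highest YFP plate, at 116.9 CPM, stood apart from the other 4 for Ttr. Chance can give such a plate, and how often it does was not tested.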

How the results depend on the processing

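No paired analysis was possible because the 2 groups compared share 1 replicate number. In every alternative that tested them, called genes of the text kept their direction, except Slc16a3 after thinning wells to 1500 counts (log2 fold change 0.00). RLE scaling, a well minimum of 3000 and barcode numbers left both counts within 1.5 times (DESeq2 also). The 81 higher and 72 lower genes became 303 and 312 with the 3 compared libraries alone, 183 and 289 without the filter on low counts, 139 and 112 without the Reg4-positive group, 142 and 117 without lineage-marked wells, and 8 and 11 after thinning, where 4721 genes were tested. Library totals gave 51 higher. The fit of the 3 compared libraries alone passed Lgr5, Smoc2, Hopx and Myc, and also Ctss, Ldha, Jun, Rps12, Hmgcs1 and Muc2. It lost the call of Sgk1, and its spread came from the 2 plates only. Leaving out 1 intestine plate or 1 whole organoid replicate gave 14 to 104 higher and 27 to 95 lower. Of 64 called genes named, 23 were called both without plate 1 and without plate 2. For the difference of culture differences, 247 upward and 220 downward calls became 411 and 545 without the filter, and 53 and 26 after thinning. Alternatives chosen after seeing the data gave 151 upward with library totals and 371 upward without the Reg4-positive group, and leaving out 1 replicate gave 63 to 312 upward and 44 to 325 downward. Shares of wells moved with depth. For Lgr5 they were 50.0% in organoid cells, against 47.9% and 34.2%, at 3000 counts, and 87.8%, against 74.7% and 84.5%, unthinned. For H2-Ab1 they were 73.7% on plate 2 at 3000 counts, and 98.7% and 97.6% on the plates unthinned. For Pgk1 they were 86.5%, against 50.7% and 47.4%, at 3000 counts, and 98.6%, against 81.3% and 91.7%, unthinned. One organoid library and counts near 0 limit low transcripts, and the spread of the organoid library itself could not be measured.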
